A study of Mus musculus with 24 samples.

Results

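The 10 genes described here, Ttr, Folr1, Kl, Clic6, Kcnj13, Otx2, Prlr, Aqp1, Slc4a5 and Sostdc1, are known as genes of choroid plexus epithelium, and they were taken by name from the 24394 genes of the deposited expression table. The study measured RNA by bulk sequencing in astrocytes that had been isolated by fluorescence-activated sorting from 4 mouse brain regions: thalamus, hippocampus, cortex and olfactory bulb. The libraries labelled KO came from conditional knockouts (NFIXcKO) of Nfix, a transcription factor of the nuclear factor I family, and those labelled WT came from control mice. There were 3 KO and 3 WT libraries in each of the 4 regions, which makes 8 groups and 24 libraries, each made from 10 ng of RNA. The Cre driver, the deleted exons, the gate of the sort, age, sex and strain are not stated in what was available for this work, and nothing says whether the libraries of a group came from separate animals. The spread against which p-values are measured may therefore be technical.

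The choroid plexus is a vascular fold in the brain ventricles whose epithelium secretes cerebrospinal fluid. Its cells move ions, bicarbonate and water from blood to ventricle, carry folate across, and release transport proteins and growth factor antagonists into the fluid. In mice the tissue lies beside the hippocampus in the lateral ventricle and above the thalamus in the third ventricle, and it is not part of the olfactory bulb or the cortex. Transthyretin, encoded by Ttr, is among the most abundant mRNAs of this epithelium and is not a product that defines astrocytes.

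The 24 libraries held 2517487 to 25616591 reads assigned to named genes, and 3 reads, used as the counting floor, correspond to 0.117 to 1.19 CPM, a gene's reads scaled by the library total. Nfix itself ranged from 3009 to 11701 normalized reads in the libraries labelled KO, against 2360 to 5117 in those labelled WT, so the gene-level values did not show a loss of the targeted gene, and they cannot show whether exons were deleted. The average difference of Nfix over regions was 0.70 ± 0.56 (SE) on log2(value + 10), with an adjusted limma p of 0.997. That SE rests on an SD moderated by limma, while the SD of Nfix within groups was 0.41. Mean Nfix was higher under the KO label in every region: 4693 against 2448 (olfactory bulb), 6730 against 4512 (hippocampus), 5026 against 3786 (cortex) and 6947 against 3137 (thalamus). In the olfactory bulb and hippocampus all KO libraries lay above all WT libraries. There 9.06% and 12.1% of genes tested did not overlap, in either direction. KO and WT are used here as the names on the labels, and each direction between them rests on those labels. The 9 astrocyte markers checked summed to 10722 to 93360 CPM in the 24 libraries. Red blood cell markers stayed at or under 0.438 CPM. Cortex WT replicate 3 and thalamus KO replicate 3 stood apart, with 3871 and 2220 genes detected against a median of 9321 over all libraries, and with oligodendrocyte markers at 51082 and 76162 CPM. Hippocampus WT replicates 2 and 3 correlated more closely over all genes than any other pair of replicates, and they were counted as separate libraries because their values differ.

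RefSeq promoter windows on GRCm38.p6, the build that mm10 names, were found for 6 of the 10 genes (11 windows). They were searched on both strands for TAATCC, the core that OTX2 and related homeodomain proteins bind, because Otx2 is a member and several members went together across libraries. The motif was in 1 of the 11 windows, against 6.25% of 32851 windows of all genes, and that window precedes an internal transcript start of Otx2 itself. The 250 bases before a transcript start are printed below for Otx2, for Kl and Kcnj13, which followed Ttr from library to library, and for Aqp1, which over all libraries did not. Capitals mark the motif, which on the printed strand reads as its reverse complement GGATTA, and a sequence without capitals does not hold those letters.
Otx2, chr14:48665110-48665359, minus strand: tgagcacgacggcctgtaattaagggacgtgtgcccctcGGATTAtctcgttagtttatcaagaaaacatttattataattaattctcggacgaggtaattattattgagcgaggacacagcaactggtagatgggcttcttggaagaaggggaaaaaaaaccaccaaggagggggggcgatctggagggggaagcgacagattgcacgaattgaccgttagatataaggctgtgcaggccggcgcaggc
Kl, chr5:150952357-150952606, plus strand: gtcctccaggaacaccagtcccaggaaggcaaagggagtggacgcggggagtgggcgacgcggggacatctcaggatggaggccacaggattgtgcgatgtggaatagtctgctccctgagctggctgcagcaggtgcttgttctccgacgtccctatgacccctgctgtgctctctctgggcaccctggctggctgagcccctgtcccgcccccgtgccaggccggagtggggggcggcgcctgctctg
Kcnj13, chr1:87394730-87394979, minus strand: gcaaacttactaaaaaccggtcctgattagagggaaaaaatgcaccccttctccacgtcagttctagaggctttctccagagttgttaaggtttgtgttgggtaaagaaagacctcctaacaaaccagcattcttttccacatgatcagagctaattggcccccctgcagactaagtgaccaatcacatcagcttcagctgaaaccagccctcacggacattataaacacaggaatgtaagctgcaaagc
Aqp1, chr6:55336049-55336298, plus strand: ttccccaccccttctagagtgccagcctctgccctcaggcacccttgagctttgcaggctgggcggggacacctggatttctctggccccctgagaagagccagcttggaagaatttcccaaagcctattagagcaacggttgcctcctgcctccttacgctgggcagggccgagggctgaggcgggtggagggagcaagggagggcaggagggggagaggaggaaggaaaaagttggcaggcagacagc
The GC content of these windows was 48.4% for Otx2, 66.8% for Kl, 45.2% for Kcnj13 and 62.0% for Aqp1.

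Ttr (chr18:20665280-20674321, plus strand, GRCm38 with GENCODE vM21, as for the genes that follow) encodes the carrier of thyroxine and of the retinol-binding protein. All values that follow are normalized reads (whole reads after division by a factor for library size) unless another scale is named. In the thalamus Ttr stood at 350257, 133023 and 3583 in KO replicates 1 to 3, against 2265, 1130253 and 71899.5 in WT replicates 1 to 3. In the hippocampus it stood at 393, 559069 and 86340 in KO and at 128711, 12263 and 73309 in WT. In the cortex the values were 194, 14050.5 and 1064 in KO and 2199, 2362 and 11.3 in WT. In the olfactory bulb they were 0, 391 and 562 in KO and 163, 0 and 1.13 in WT. KO and WT libraries overlapped in every region, and within most groups the highest library exceeded the lowest many times over. Thalamus WT replicate 2 devoted 9.22% of its reads to Ttr (Wilson 95% interval 9.20 to 9.23%) and hippocampus KO replicate 2 devoted 5.47% (5.45 to 5.48%), intervals that cover counting error only. A bulk library cannot tell whether fewer cells of a type or less RNA per cell lies behind a lower value.

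**Figure D1:**
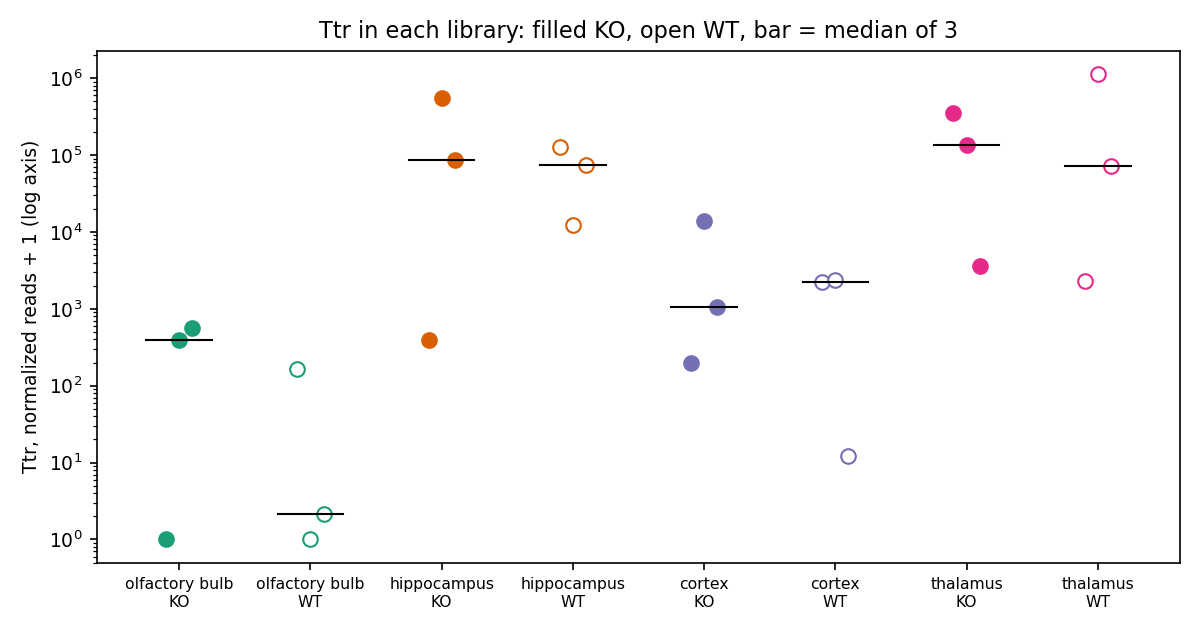
Ttr in normalized reads plus 1 on a log axis for the 24 libraries, by region with KO left of WT; filled points are KO, open points WT, and bars are medians of 3. Thalamus and hippocampus libraries reach 1130253 and 559069, olfactory bulb libraries end at 562, and KO and WT overlap in each region.

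Kl (chr5:150952607-150993817, plus strand) encodes klotho, a membrane protein that acts as co-receptor for FGF23 and is also shed into cerebrospinal fluid. It stood at 5385, 421 and 0 in thalamus KO libraries, against 0, 22923 and 852 in thalamus WT libraries. In the hippocampus it stood at 201, 8031 and 625 in KO and at 1021, 110.5 and 911 in WT. Only cortex KO replicate 2 (153), cortex WT replicate 1 (14.4) and cortex WT replicate 2 (40.1) had Kl reads outside these regions, and the 6 olfactory bulb libraries had none. Hippocampus KO replicate 1 had 223 Kl reads beside 436 Ttr reads, and no read of the other 8 genes.

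Folr1, Prlr and Kl are the receptors of the list. Folr1 (chr7:101858331-101870788, minus strand) encodes folate receptor alpha, through which the epithelium passes folate to the fluid, and it had reads in 6 libraries. These were 996 and 51.9 in thalamus KO replicates 1 and 2, 863 and 275 in hippocampus KO replicates 2 and 3, and 2314 and 414 in thalamus WT replicates 2 and 3. No hippocampus WT, cortex or olfactory bulb library had a Folr1 read. Prlr (chr15:10177238-10349180, plus strand) encodes the prolactin receptor, which is abundant in the choroid plexus. Its thalamus values were 5163, 718 and 0 in KO and 219, 15002 and 265 in WT. Its hippocampus values were 0, 5484 and 551 in KO and 477, 30.8 and 185 in WT. In the cortex KO replicate 2 had 36.3 and WT replicate 2 had 10.3. Prlr also reached 6676 in olfactory bulb KO replicate 1, a library with no read of Ttr, Kl, Clic6, Otx2 or Sostdc1, while the other 5 olfactory bulb libraries had no Prlr read. A stretch of 203 exon bases of Prlr is shared with Gm21973, and how reads there were assigned is not given in the sources used here.

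The channels and transporters move ions and water. Kcnj13 (chr1:87386363-87394729, minus strand) encodes the inward rectifier potassium channel Kir7.1 of the epithelium's apical membrane. It stood at 495, 297 and 0 in thalamus KO libraries, against 0, 5171 and 441 in thalamus WT libraries. In the hippocampus it stood at 0, 3166 and 1570 in KO and at 2064, 1176 and 354 in WT. Cortex KO replicate 2 had 492, and the other cortex libraries had less than 1. Olfactory bulb WT replicate 3 had 285 with a Ttr value of 1.13, and olfactory bulb KO replicate 2 had 3.06. Of its exon bases 623 are also exon of the antisense gene Gigyf2, and strand use is not given, so reads of these genes cannot be told apart there. Clic6 (chr16:92485736-92541243, plus strand) encodes a member of the chloride intracellular channel family. It stood at 1739, 583 and 0 in thalamus KO and 9.93, 5173 and 48.5 in thalamus WT, and at 0, 3888 and 1805 in hippocampus KO and 395, 64.3 and 1026 in hippocampus WT. Outside these regions Clic6 was highest in cortex KO replicate 2, at 496, and in olfactory bulb KO replicates 2 and 3, at 155 and 177, followed by cortex WT replicate 1, at 38.4. Slc4a5 (chr6:83219828-83304945, plus strand) encodes an electrogenic sodium bicarbonate cotransporter and was above 0 in 8 libraries. Its values were 337 and 164 in thalamus KO replicates 1 and 2, 1460 and 2.13 in hippocampus KO replicates 2 and 3, 1959 and 83.4 in thalamus WT replicates 2 and 3, 640 in hippocampus WT replicate 1 and 34.0 in cortex WT replicate 2.

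Aqp1 (chr6:55336432-55348555, plus strand) encodes the water channel of the apical membrane. In the olfactory bulb it stood at 1319.8, 186 and 0.823 in KO and at 142, 603 and 411 in WT, and it was the member with reads in all 6 libraries of that region. The value of 0.823 is 1 read, under the floor. In the thalamus it stood at 209, 80.5 and 0 in KO and at 0, 386 and 0 in WT. A single hippocampus library, KO replicate 2 at 742, and a single cortex library, WT replicate 2 at 67.4, had Aqp1 reads. Its highest library was therefore olfactory bulb KO replicate 1, whereas the highest library of each of the other 9 genes was thalamus WT replicate 2. Aqp1 is also known in endothelium and other cells outside the choroid plexus. The 8 endothelial markers summed to 21.0 CPM in olfactory bulb KO replicate 1, within 21.0 to 279 CPM over that region, and their part in the Aqp1 values was not tested.

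Otx2 (chr14:48657677-48673819, minus strand) encodes a homeodomain transcription factor that choroid plexus development and maintenance require. Sostdc1 (chr12:36314139-36318452, plus strand) encodes a secreted antagonist of BMP and Wnt signals. Otx2 stood at 1652, 76.6 and 0 in thalamus KO and at 349, 9862 and 814 in thalamus WT. In the hippocampus it stood at 0, 1326 and 460 in KO and at 815, 3.95 and 67.3 in WT. No cortex library had an Otx2 read, and the olfactory bulb libraries ended at 19.8. Exon bases of Otx2 are shared with Otx2os1 (154, opposite strand) and Gm49154 (168, same strand). Sostdc1 stood at 851, 54.5 and 0 in thalamus KO and at 0, 6698 and 636 in thalamus WT. In the hippocampus it stood at 0, 2178 and 262 in KO and at 60.8, 71.8 and 1037 in WT. The remaining Sostdc1 values were 22.2 in olfactory bulb KO replicate 2 and 7.79 in cortex WT replicate 1.

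**Figure D2:**
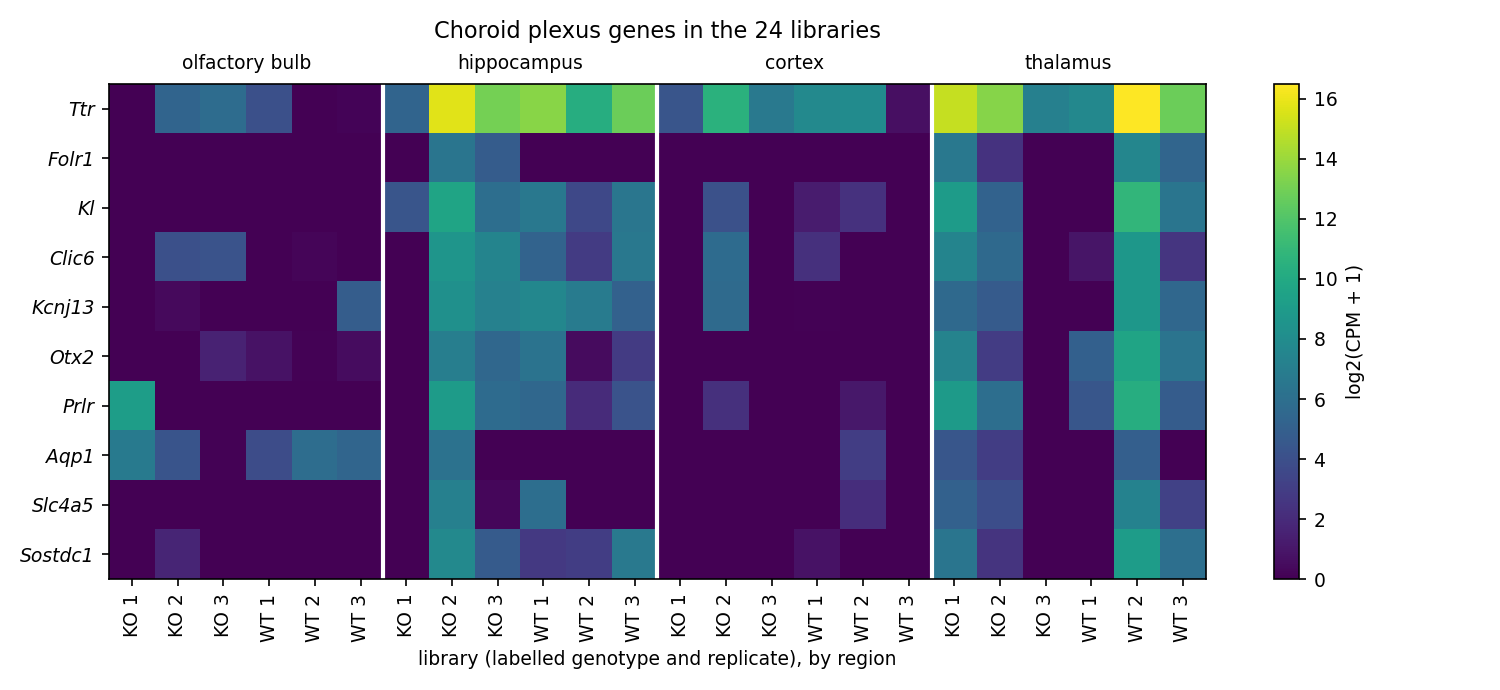
The 10 genes (rows) in the 24 libraries (columns, by region, KO left of WT), coloured by log2(CPM + 1). Thalamus WT replicate 2, hippocampus KO replicate 2 and thalamus KO replicates 1 and 2 show all 10 genes, and thalamus KO replicate 3 shows Ttr alone.

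All 10 genes had 3 or more reads in hippocampus KO replicate 2, thalamus KO replicates 1 and 2 and thalamus WT replicate 2. Conversely, Ttr was the only member at the floor or above in thalamus KO replicate 3, cortex KO replicates 1 and 3 and cortex WT replicate 3, which had 362, 285, 1271 and 3 Ttr reads. Each gene's reads came from few libraries. The 3 highest libraries held 63.7% of the summed CPM of Aqp1 and 88.4% of that of Kl, with the other members between these values. Per kilobase of exon, the highest level of Ttr was 77708 CPM, and those of the other 9 ran from 27.5 CPM for Slc4a5 to 332 CPM for Kcnj13. The spread between replicates was large for this list, a trait known when the list was taken up, so the values below describe it and test nothing. On log2(value + 10) the SD within groups was 3.63 for Ttr, 3.33 for Prlr, 3.11 for Clic6 and 2.20 for Folr1, against a median of 1.90 over 12477 genes. Ttr stood at the 99.9th percentile of that spread, Folr1 at the 74.3rd and the other members between these. Nfix, with an SD of 0.41, stood at the 0.224th percentile.

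Regions were first compared by medians over KO and WT libraries together. Ttr had a median of 102461 in the thalamus (2265 to 1130253), 79825 in the hippocampus (393 to 559069), 1631 in the cortex (11.3 to 14050.5) and 82.1 in the olfactory bulb (0 to 562), with 6 libraries a region. In this order neighbouring regions overlapped, while every thalamus library lay above every olfactory bulb library. For Kl the order was hippocampus (median 768), thalamus (636), cortex (7.19) and olfactory bulb (0). Kcnj13 and Clic6 also had their highest median in the hippocampus, at 1373 and 711, against 369 and 316 in the thalamus. Otx2, Prlr and Sostdc1 had theirs in the thalamus, at 581, 492 and 345, against 264, 331 and 167 in the hippocampus, and these ranges overlapped. Among KO libraries alone the order was reversed for Otx2 (median 76.6 in thalamus, 460 in hippocampus) and Sostdc1 (54.5 and 262). Among WT libraries alone it held for Otx2 (814 and 67.3) and Sostdc1 (636 and 71.8). Prlr kept it in both, at 718 and 551 in KO and 265 and 185 in WT. For Ttr the thalamus and hippocampus medians were 133023 and 86340 in KO but 71899.5 and 73309 in WT. Aqp1 alone had its highest median in the olfactory bulb, at 298, against 40.2 in the thalamus and 0 in the hippocampus and cortex.

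A call means a Benjamini-Hochberg adjusted p under 0.05 over all genes tested, with limma on log2(value + 10) for genes at 10 or more in 3 or more libraries. Among the 12 KO libraries the test over 4 regions called 0 of the 10 genes, against 0.0558% of all genes. The smallest adjusted limma p was 0.272, for Kl, and 2 of the 10 had an unadjusted p under 0.05, against 757 of 10756 genes. Among the 12 WT libraries, where Folr1 did not pass the filter on low values, 0 of the 9 members tested were called, against 0.252% of all genes. There the smallest adjusted limma p was 0.101, for Otx2, and 8 of the 9 had an unadjusted p under 0.05, against 754 of 11105 genes. With all 24 libraries in a fit that holds genotype as a term, chosen after seeing the data, 5 members were called: Kl (adjusted limma p 0.00288), Ttr (0.00747), Otx2 (0.0115), Kcnj13 (0.0373) and Sostdc1 (0.0444), against 1.43% of all genes. In that fit Ttr was 9.88 higher in thalamus, 9.25 higher in hippocampus and 3.82 higher in cortex than in olfactory bulb on the log2(value + 10) scale. The corresponding differences were 5.35, 6.14 and 1.27 for Kl and 4.82, 3.23 and -0.51 for Otx2. The 5 calls rest on moderated SDs under the residual SDs: 2.35 for 2.73 (Kl), 3.20 for 3.40 (Ttr) and 2.20 for 2.36 (Otx2). For Kcnj13 limma used 2.37 for a residual SD of 2.85, and for Sostdc1 2.20 for 2.46.

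The region result depended on the test and on single libraries. On recovered reads of 11 WT libraries, without thalamus WT replicate 1, limma-voom called 9 members (3.13% of all genes), edgeR's quasi-likelihood test 7 (1.94%) and DESeq2 4 (1.41%). On those of 11 KO libraries, without thalamus KO replicate 3, limma-voom called 7 (3.13% of all genes), and edgeR and DESeq2 called 0 (0.482% and 1.09%). Otx2 was called in the WT libraries without cortex WT replicate 3 (adjusted limma p 0.0421), where the share of all genes called was 1.27%, and Kl without thalamus WT replicate 1 (0.0318), where it was 0.228%. In the KO libraries Kl was called without thalamus KO replicate 3 (0.0225), where 0.662% of all genes were called. Ttr was called there without hippocampus KO replicate 1, hippocampus KO replicate 2 or cortex KO replicate 2, where 0.0472%, 0.107% and 0.106% of all genes were called. In these 3 fits limma replaced the Ttr residual SD of 3.11, 3.67 and 3.91 by a moderated SD of 1.45, 1.73 and 2.37, whereas with all 12 KO libraries it used 3.78 for a residual SD of 3.92.

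KO and WT libraries were compared in each region and over the 4 regions together. The 10 genes showed no called difference. In the average over regions 0 of 10 were called, with 0% of 12477 genes called by limma (604 genes had an unadjusted p under 0.05, none of them a member). Ttr was 0.75 ± 1.31 (SE) higher in the libraries labelled KO on the log2(value + 10) scale, with an adjusted limma p of 0.997, and an exact two-sided permutation test within regions gave p = 0.594 over 160000 assignments. Of the other members, Clic6 stood at 1.12 ± 0.98, Prlr at 0.74 ± 1.01 and Folr1 at 0.61 ± 0.80. Aqp1 (0.15 ± 0.87) and Kl (0.05 ± 0.96) lay near 0. The negative estimates were -0.67 ± 0.90 for Otx2, -0.58 ± 0.97 for Kcnj13, -0.45 ± 0.90 for Sostdc1 and -0.19 ± 0.82 for Slc4a5. The 6 positive and 4 negative estimates had a median of 0.10, against -0.17 for all genes. On whole reads recovered from 22 libraries, which leaves out thalamus KO replicate 3 and thalamus WT replicate 1, edgeR and limma-voom called 0 members and 0% of all genes. DESeq2 called Folr1 alone (adjusted p 5.72e-06), a gene with reads in 4 KO and 2 WT libraries, against 3.24% of all genes.

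**Figure D3:**
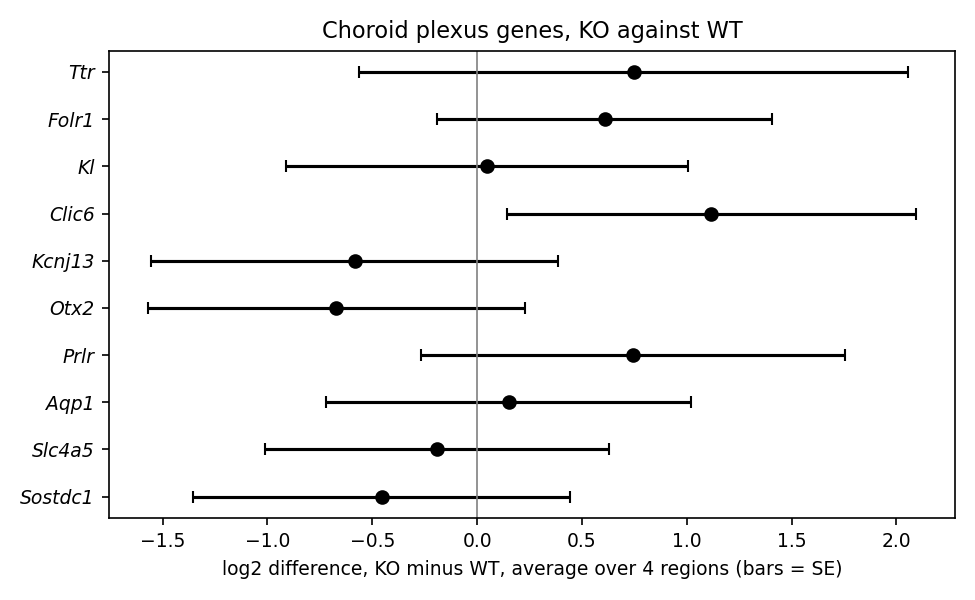
Log2 difference between KO and WT libraries, averaged over the 4 regions, for the 10 genes on log2(normalized reads + 10); points are estimates and bars 1 SE. Estimates run from -0.67 for Otx2 to 1.12 for Clic6, and no gene passed the test.

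Within regions no member was called by limma either. In the thalamus all 10 were tested and 0 called (0% of all genes). Otx2 had the estimate farthest from 0, at -3.66 ± 2.44 (adjusted limma p 0.859), and Ttr lay at -0.05 ± 3.28. In the hippocampus 7 were tested and 0 called (0.0109% of all genes), with Kl at 1.08 ± 1.02 and Ttr at -0.86 ± 3.21 (adjusted limma p 0.872 and 0.977). These SE rest on moderated SDs: 1.25 for a residual SD of 2.27 for Kl, and 3.93 for 4.03 for Ttr. DESeq2 on recovered reads called Folr1 there (adjusted p 0.0109), against 3.67% of all genes by that tool, where hippocampus KO replicates 2 and 3 had reads and KO replicate 1 and all WT replicates had none. In the cortex Ttr and Kl were tested and 0 called (0%), at 1.60 ± 1.71 and 0.14 ± 1.39. In the olfactory bulb Ttr and Aqp1 were tested and 0 called (0%), at 2.30 ± 1.86 and -1.27 ± 1.49. Exact two-sided permutation tests of Ttr gave p = 1 for the thalamus, 0.9 for the hippocampus, 0.7 for the cortex and 0.4 for the olfactory bulb, where 20 assignments allow no p under 0.1. KO and WT libraries overlapped for each of the 10 genes in each region. This holds untested members too, some with no read in either group, which must overlap. Over all genes tested, they did not overlap for 11.2% in the thalamus, 12.1% in the hippocampus, 7.61% in the cortex and 9.06% in the olfactory bulb. The members tested are too few to be set apart from these shares. A test of whether the KO against WT difference varied between regions called 0 of the 10 (0% of all genes), with adjusted limma p from 0.939 to 0.994, and 572 of 12477 genes had an unadjusted p under 0.05.

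The members were then set against Ttr from library to library, on log2(CPM + 1). Kl followed Ttr most closely, with a Pearson r of 0.88 and a Spearman rho of 0.89 over the 24 libraries (adjusted permutation p 2.25e-05 for each, from the smallest p that 100000 resamples can give, 1e-05). Pearson r was 0.84 for Clic6, 0.81 for Sostdc1, 0.78 for Otx2, 0.77 for Kcnj13, 0.73 for Slc4a5, 0.70 for Folr1 and 0.65 for Prlr, with adjusted permutation p from 2.25e-05 to 0.000731 over the 9 relations. Their Spearman rho lay between 0.69 for Otx2 and 0.82 for Clic6 and Sostdc1. The resamples exchanged libraries freely over regions and genotypes, so these p-values also take in differences between regions. Over all libraries Aqp1 had r = -0.14 (permutation p 0.51) and rho = -0.12 (permutation p 0.568) with Ttr. Its olfactory bulb libraries combined high Aqp1 with low Ttr, and after subtraction of the group means its r with Ttr was 0.37. For the other genes r after that subtraction ran from 0.48 for Prlr to 0.87 for Clic6, and it was not tested. Libraries with 0 reads of a gene share the lowest value on its axis, and these ties enter every coefficient.

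**Figure D4:**
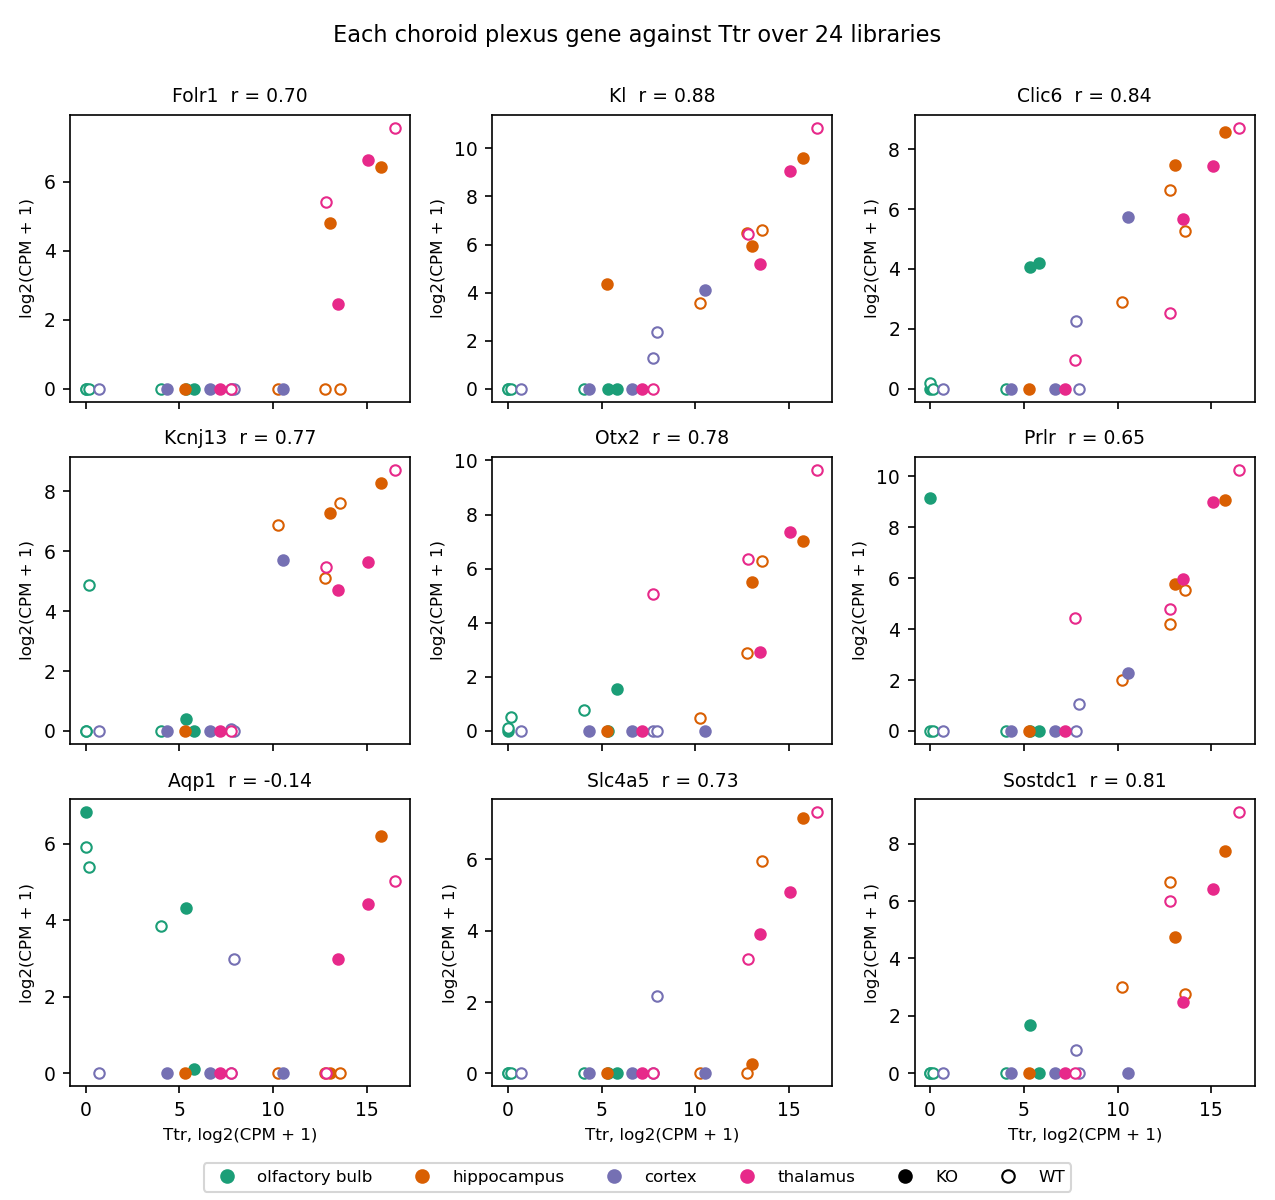
Each of 9 genes (vertical axis) against Ttr (horizontal axis), log2(CPM + 1), one point per library; colour gives the region, filled points are KO and open points WT. Kl rises along Ttr with r = 0.88, Aqp1 has r = -0.14 over all libraries, and the Prlr point at the upper left is olfactory bulb KO replicate 1.

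Without thalamus WT replicate 2 and hippocampus KO replicate 2, the libraries farthest from the median of Ttr, r ran from 0.53 for Prlr to 0.85 for Kl over 22 libraries and was -0.43 for Aqp1 (permutation p 0.0437). Within regions, with 6 libraries each, 31 relations could be computed. In the thalamus r lay between 0.76 for Otx2 and 0.98 for Kl and Slc4a5. The exact permutation p adjusted over the 31 was at most 0.0431 for 7 of the 9 genes, the exceptions being Otx2 (0.139) and Aqp1 (r = 0.86, 0.0807). Thalamus KO replicate 3, with 2220 genes detected, had 362 Ttr reads and no read of the 9 genes. It gave each thalamus relation a point at the low end of both genes, and these relations were not computed without it. In the hippocampus r lay between 0.53 for Aqp1 and 0.95 for Clic6, and 3 of 9 passed by the exact permutation test: Otx2 (adjusted p 0.0215), Prlr (0.0215) and Clic6 (0.0323). In the cortex r lay between 0.21 for Sostdc1 and 0.80 for Kl, and 0 of 7 passed. In the olfactory bulb 1 of 6 passed, Aqp1 at r = -0.83 (adjusted exact permutation p 0.0383), and Clic6 stood at r = 0.83 (0.0807). Values under the floor enter both relations. Ttr had 0 reads in KO replicate 1 and WT replicate 2 there and 1 read in WT replicate 3. Aqp1 had 1 read in KO replicate 3, the library of that region highest in Ttr.

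Reads per 1000 Ttr reads show how far the genes kept a ratio in the 10 libraries with 10000 or more Ttr reads, over which the Ttr level varied 76.0-fold in CPM. Kl had 3.16 to 20.3 reads per 1000 Ttr reads (median 11.4), so its ratio varied 6.41-fold. Prlr had 2.51 to 14.7 (median 4.55), a 5.87-fold range. Kcnj13 had 1.41 to 95.9 (median 5.90), with the highest ratio in hippocampus WT replicate 2, and Clic6 had 0.675 to 35.3 (median 5.10), with the highest in cortex KO replicate 2. Otx2 and Sostdc1 reached 11.3 and 14.2 and were at 0 in cortex KO replicate 2. Slc4a5 was above 0 in 7 of the 10 libraries, Folr1 in 6 and Aqp1 in 4. For example, hippocampus KO replicate 3 had 121477 Ttr reads, 2539 Clic6 reads and 775 Prlr reads. Thalamus KO replicate 2, with 102455 Ttr reads, had 449 Clic6 reads and 553 Prlr reads.

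**Figure D5:**
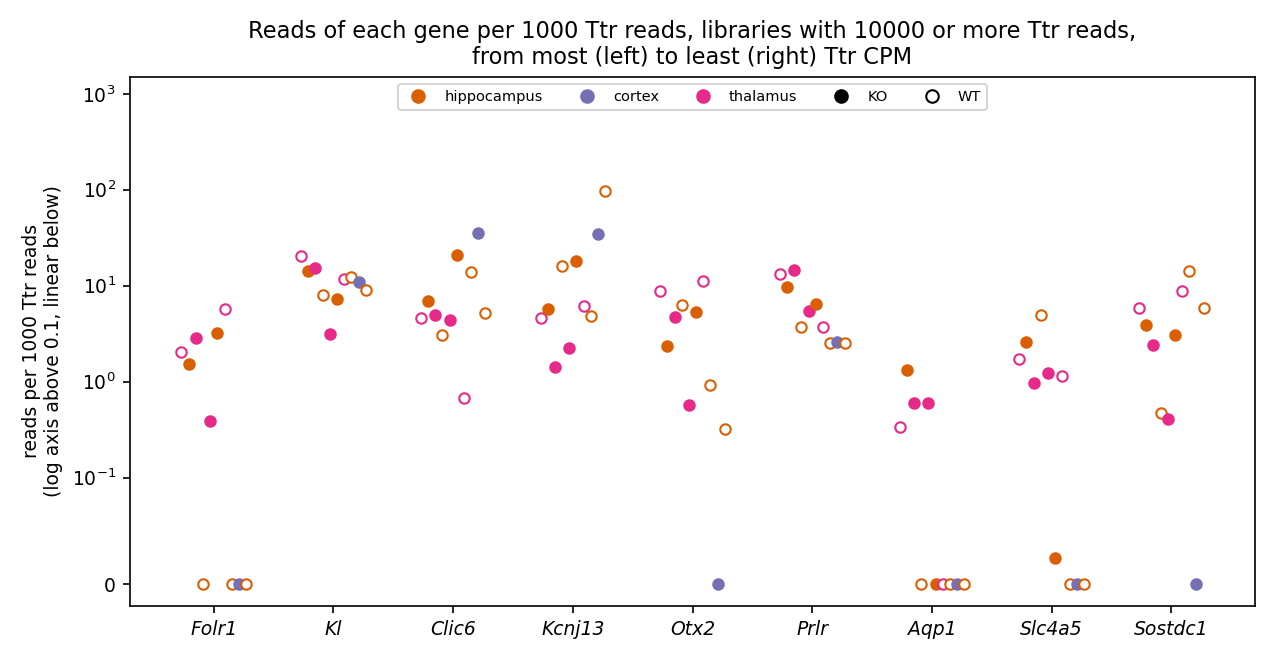
Reads of each gene per 1000 Ttr reads in the 10 libraries with 10000 or more Ttr reads, ordered within each gene by Ttr CPM (log axis above 0.1); filled points are KO, open points WT. Kl stays within 3.16 to 20.3, while Kcnj13 spans 1.41 to 95.9 and Aqp1 is at 0 in 6 of 10.

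The genes most like Ttr among 12467 others tested, by Pearson r on log2(value + 10) over 24 libraries, were 1500015O10Rik (0.88), Htr2c (0.85), Ace (0.84), F5 (0.75), G2e3 (0.73), Kcne2 (0.72), Rbm47 (0.72) and Slc4a10 (0.71). Htr2c encodes a serotonin receptor, Ace the angiotensin-converting enzyme, F5 coagulation factor V, Kcne2 a potassium channel subunit and Slc4a10 a bicarbonate transporter. The members ranked in the same order of likeness at 2 (Kl), 5 (Clic6), 6 (Sostdc1), 7 (Otx2), 8 (Kcnj13), 10 (Slc4a5), 15 (Folr1), 34 (Prlr) and 9900 (Aqp1), not counting Ttr itself. Of 38 other choroid plexus genes in the table, which include 1500015O10Rik named above, 32 were tested and 20 had r above 0.5, against 1.71% of all genes tested (median r 0.58, against 0.05). Their highest library was thalamus WT replicate 2 for 23 of 36 with reads and 849 of 16117 genes with reads. One of them, Enpp2, chosen after its values were seen, encodes the lysophospholipase autotaxin, which oligodendrocytes also make. Its median was 19126 normalized reads in the thalamus (9.90 to 299724), 21441 in the hippocampus (892 to 143475), 2505 in the cortex and 3989.9 in the olfactory bulb.

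Lists of related pathways were set against Ttr in the same way. Pearson r with Ttr exceeded 0.5 for 3 of 20 tested genes of cerebrospinal fluid ion transport, which include Kcne2 named above. It did so for none of the tested genes of ciliated ependyma (13), thyroid hormone and retinol handling (9), folate transport and enzymes (11), klotho and FGF receptors (7), prolactin receptor signalling (9) or the BMP and LRP partners of Sostdc1 (10). It exceeded 0.5 for 3 of 8 fibroblast markers, 1 of 8 endothelial markers and none of the astrocyte (9), oligodendrocyte (10), neuron (9) or microglia (8) markers. Fibroblast markers, which choroid plexus stroma and meninges share, summed to a median of 481 CPM in the thalamus, 72.5 in the hippocampus, 37.6 in the cortex and 63.4 in the olfactory bulb. Ciliated ependymal markers, which line the ventricles, summed to 145, 50.1, 2.86 and 52.1 CPM in the same order of regions, while the 10 choroid plexus genes summed to 9545, 8149, 161 and 72.0 CPM. The astrocyte markers summed to 31049 CPM in thalamus WT replicate 2 and 51764 CPM in hippocampus KO replicate 2, the libraries highest in Ttr. The medians were 40701 CPM in the thalamus (10722 to 46754, the lowest in a KO library) and 81605 CPM in the hippocampus (51764 to 93360). Over the 24 libraries the 9 astrocyte markers had a median r of 0.25 with Ttr (-0.30 to 0.47). The part of other cells in the members' values was not tested.

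None of these lists, nor the red blood cell list, of which no gene passed the filter, had a called gene in the average of KO against WT. The 2 genes with the smallest p in the lists of the members' partners were Crym (0.92 ± 0.58) and Slco1a4 (-0.90 ± 0.97) for thyroid hormone and retinol handling, and they included Mthfd2 (0.90 ± 0.51) for folate. They were Adam10 (-0.98 ± 0.79) and Fgfr2 (-0.46 ± 0.73) for klotho and FGF receptors, Stat5b (-1.65 ± 0.84) and Stat3 (-1.24 ± 0.77) for prolactin signalling, and Lrp5 (-2.14 ± 0.84) and Bmp2 (-1.03 ± 0.47) for the BMP and LRP list. For ion transport they included Oxsr1 (1.85 ± 0.92). They were, for other choroid plexus genes, Steap1 (1.13 ± 0.56) and Calml4 (0.97 ± 0.71) and, for ciliated ependyma, Rarres2 (-1.89 ± 0.74) and Tekt1 (-1.35 ± 0.67). These are log2 differences with SE, and their adjusted limma p ran from 0.983 to 0.997. Of the 32 other choroid plexus genes tested, 11 were above 0 and 21 below, with a median of -0.14.

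The other lists had medians of -0.19 (ciliated ependyma, 4 above 0 and 9 below), -0.29 (thyroid hormone and retinol, 1 and 8), -0.11 (ion transport, 7 and 13), 0.07 (folate, 7 and 4), -0.40 (klotho and FGF receptors, 1 and 6), -0.28 (prolactin signalling, 2 and 7) and 0.01 (BMP and LRP, 5 and 5). The marker lists had medians of -0.11 (astrocyte, 3 above 0 and 6 below), -0.45 (oligodendrocyte, 2 and 8), -0.60 (neuron, 2 and 7), -0.35 (microglia, 3 and 5), -0.33 (endothelium, 3 and 5) and -0.87 (fibroblast, 3 and 5), against -0.17 for all genes. Their genes with the smallest p were Gja1 (-0.50 ± 0.51) and Sox9 (0.41 ± 0.57), Mag (-1.56 ± 0.82) and Ermn (-1.05 ± 0.75), Stmn2 (-1.51 ± 0.67) and Nefl (-1.66 ± 0.75), C1qa (0.76 ± 0.70) and C1qc (0.91 ± 0.95), Itm2a (-1.42 ± 0.97) and Ly6c1 (0.88 ± 0.94), and Col1a1 (-2.08 ± 0.90) and Pdgfra (-1.70 ± 0.86), in that order of lists. Between regions 1 of 27 other choroid plexus genes was called in the WT libraries, against 0.252% of all genes. It was Igf2 (adjusted limma p 0.0142), a growth factor that the choroid plexus and meninges release. Over KO and WT libraries together Igf2 had a median of 9372 normalized reads in the thalamus, 2852 in the hippocampus, 338 in the cortex and 256 in the olfactory bulb. Of 6 fibroblast markers tested in the WT libraries 2 were called. These were Slc6a13 (adjusted limma p 0.0289), a GABA transporter of the meninges, and Dcn (0.0447), the matrix protein decorin. In the KO libraries 1 of 9 astrocyte markers was called, against 0.0558% of all genes. It was Slc1a2 (adjusted limma p 0.0173), the main glutamate transporter of astrocytes.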

How the data were processed

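Bulk RNA sequencing libraries of sorted mouse astrocytes were compared in 8 groups of 3. The deposited values are a normalized signal: per the file itself, they are whole reads per gene divided by 1 size factor per library, the median of ratios. Per the submitters' processing notes the tools were STAR 2.5.0a and DESeq2 1.20.0 on mm10; strand use is not given in the sources used here. Of 24421 entries, 27 whose names had turned into dates were left out (0.0738 to 0.255% of reads). Multiplying by the size factor gave whole reads (tolerance 0.001) in all 24 libraries. In 2 of them, thalamus KO replicate 3 and thalamus WT replicate 1, 1 read is worth 9.90 and 0.993 deposited units, close to 10 and 1, and count tests used the other 22.

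Because the values are normalized, limma 3.58.1 (R 4.3.3, trend and robust options) was fitted to log2(value + 10), for genes at 10 or more in 3 or more libraries, with Benjamini-Hochberg adjustment over all genes tested. Its SE and p-values rest on SDs moderated towards those of genes of like level. In the KO against WT fits these SDs were at or under each member's own residual SD, for example 3.00 against 5.11 for Kl in the thalamus. Between WT regions they were higher for Otx2 (2.18 against 1.94), Prlr and Aqp1. They were lower for the other members tested there, as for Kl (2.33 against 2.99). Between KO regions they were lower for every member, as for Prlr (2.63 against 4.29). A fold change on log2(value + 10) understates that of low genes. limma-voom, edgeR 4.0.16 and DESeq2 1.42.0 on recovered reads, other pseudocounts, filters and scalings, a replicate block and leaving out libraries were alternatives. CPM are reads scaled by the total over named genes. The script was run on simulated data with a spread between libraries set smaller than that of these data. That run does not show how the fits behave here. The members and the 16 gene lists were chosen with earlier results of these data known. All 10 members were named, with 2 genes per other list (the smallest p in the average over regions, or up to 4 that passed) and the 8 genes most like Ttr. Single genes of 2 lists that this rule names are not reported here. Intervals and floors cover counting error only. KO and WT follow the labels.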

Additional observations from a re-analysis of the deposited data

How the results depend on the processing

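KO against WT called 0 of the 10 genes under every alternative run except DESeq2 on recovered reads. That tool called 1, Folr1, in the hippocampus (3.67% of all genes) and 1, Folr1, in the average (3.24%). Between regions the calls did change. In WT libraries without thalamus WT replicate 1, limma-voom called 9 (3.13% of all genes), edgeR 7 (1.94%), DESeq2 4 (1.41%) and limma 1 (Kl, 0.228%). All 24 libraries with genotype as a term gave 5 (1.43%). WT libraries without the libraries with few genes gave 1 (Otx2, 1.27%). In KO libraries without thalamus KO replicate 3, limma-voom called 7 (3.13%), edgeR and DESeq2 0 (0.482% and 1.09%) and limma 1 (Kl, 0.662%). Leaving out 1 library at a time gave 0 to 1 by limma in either genotype. In the average the sign turned for Ttr (-1.87 with limma-voom), Kl (-0.15 with a pseudocount of 1, -0.21 with limma-voom, -0.13 with hippocampus WT 2 and 3 averaged), Otx2 (0.0177 with edgeR), Aqp1 (-0.0059 with limma-voom) and Slc4a5 (0.12 without the libraries with few genes). Ttr turned to 0.12 with limma-voom, 1.45 with edgeR and 1.46 with DESeq2 in the hippocampus, to -0.65 in the cortex and 1.92 in the thalamus without the libraries with few genes, and to 1.46 in the thalamus with upper-quartile factors. Leaving out 1 library at a time gave, in the average, -0.51 to 0.66 for Kl, -1.11 to 0.0066 for Kcnj13, -0.0407 to 1.40 for Prlr, -0.39 to 0.62 for Aqp1, -0.72 to 0.25 for Slc4a5 and -0.91 to 0.0797 for Sostdc1, and for Ttr -3.05 to 2.17 in the hippocampus, -0.65 to 3.01 in the cortex and -2.37 to 2.11 in the thalamus. The cause of these changes was not tested.

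Over all genes DESeq2 called 155 (olfactory bulb), 508 (hippocampus), 99 (cortex), 823 (thalamus) and 521 (average) KO against WT, against 0, 1, 0, 0 and 0 with limma. Between regions 28 genes were called in WT libraries (14 to 383 under the alternatives, 14 without olfactory bulb WT replicate 1 and 140 without cortex WT replicate 3) and 6 in KO libraries (0 to 377). Same-numbered KO and WT libraries did not deviate together (r from -0.07 to 0.08), and with a replicate block 0 members were called. Over all libraries the relation to Ttr passed for 8 of 9 genes with a pseudocount of 10, with deposited values, with hippocampus WT 2 and 3 averaged, without the libraries with few genes and without any 1 library, but within single regions fewer passed. The tests over all libraries also take in differences between regions. Depth limits low members: 3 reads are 0.117 to 1.19 CPM, and a value of 0 is not absence.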
